A study of Homo sapiens with 2 samples.

Results

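The thrombospondin genes THBS1 and THBS2 and the fibrillin gene FBN1 were followed in a human fibrosarcoma line, HT1080, which is an established cell line. The members were every probe set whose only gene symbol in GEO's platform annotation was THBS1, THBS2 or FBN1, which gave 3 probe sets, 1 for each gene, of 53617 in all. The genes were chosen with their values on these arrays known, so the values below are a description and nothing is tested with them. The study used 2 Affymetrix Human Gene 2.0 ST arrays, on which many short probes along a transcript are combined into 1 value per probe set. The control array held RNA of HT1080 cells infected with virus carrying a non-targeting shRNA, the other RNA of HT1080 cells infected with virus carrying an shRNA against cMyc. Both were harvested 48 hours after infection. The labels name 1 sample of each, and no hairpin sequence or clone is given in the sources used here.

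Thrombospondins are secreted glycoproteins that sit in and around the matrix and bind cell receptors, growth factors and proteases. THBS1 and THBS2 form trimers, carry type 1 repeats that bind CD36, inhibit the growth of blood vessels, and engage CD47 and integrins. THBS1 can also release latent TGF-beta in active form. FBN1 encodes the main fibrillin of microfibrils, the filaments that scaffold elastic fibres and hold latent TGF-beta through the LTBP proteins. THBS1 has been described as a gene that MYC represses.

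The stretches just before the annotated starts of the 3 genes are shown because the target was a transcription factor that binds DNA. Whether these stretches bear on the differences between the arrays was not tested. The stretches come from RefSeq, build GRCh38.p14, are 250 bases each, and are written 5′ to 3′ on the strand of the gene, ending at the base before the start. THBS1 lies at chr15:39580829-39581078 on the plus strand. THBS2 lies at chr6:169253847-169254096 on the minus strand. FBN1 lies at chr15:48644971-48645220 on the minus strand. Capitals mark every match to the motifs named after the sequences.
THBS1: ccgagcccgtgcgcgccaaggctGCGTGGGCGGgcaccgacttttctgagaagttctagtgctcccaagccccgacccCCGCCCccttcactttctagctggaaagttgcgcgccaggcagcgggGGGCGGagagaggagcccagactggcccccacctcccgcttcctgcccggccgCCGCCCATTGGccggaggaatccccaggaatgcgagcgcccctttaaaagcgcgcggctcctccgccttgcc
THBS2: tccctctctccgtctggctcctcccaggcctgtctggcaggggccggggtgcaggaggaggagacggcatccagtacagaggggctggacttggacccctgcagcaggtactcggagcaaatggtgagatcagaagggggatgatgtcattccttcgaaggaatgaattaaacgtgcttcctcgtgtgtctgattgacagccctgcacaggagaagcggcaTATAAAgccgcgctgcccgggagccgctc
FBN1: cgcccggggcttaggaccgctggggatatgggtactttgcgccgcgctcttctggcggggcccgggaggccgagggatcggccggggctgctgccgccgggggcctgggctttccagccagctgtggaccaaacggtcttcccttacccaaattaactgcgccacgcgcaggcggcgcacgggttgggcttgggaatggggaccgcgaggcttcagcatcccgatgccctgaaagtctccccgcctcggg

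A set of 6 motifs was searched on both strands: the E-box CACGTG, which MYC binds with MAX, the TATA element TATAAA, the CCAAT box, the GC box GGGCGG, the element of EGR factors GCGNGGGCG and the AP-1 element TGANTCA. These motifs were chosen with the sequences in view. The THBS1 stretch held 4 GC boxes, 1 EGR element and 1 CCAAT box on the opposite strand. The EGR element, from 227 to 219 bases before the start, overlapped the GC box that began 223 bases before it. The THBS2 stretch held 1 TATAAA, from 29 to 24 bases before the start, and no other match. The FBN1 stretch held no match to any of the 6, although its GC content of 69.6% equalled that of THBS1 and was above the 60.0% of THBS2. Among the 35116 promoter stretches of the same length, the E-box occurred in 6.34%, TATAAA in 10.7%, CCAAT in 32.0%, the GC box in 42.6%, the EGR element in 8.41% and the AP-1 element in 6.57%. None of the 3 genes had an E-box in this window, which says only that these letters are not there.

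**Figure D1:**
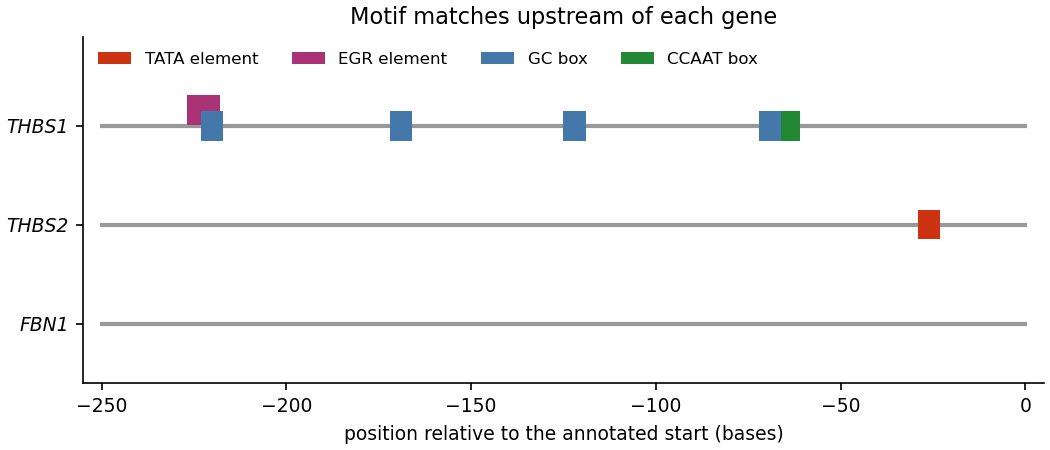
Matches to the searched motifs in the 250 bases before the annotated start of THBS1, THBS2 and FBN1; the horizontal axis is the position relative to the start in bases, and coloured blocks are matches drawn to scale, with the EGR block raised where it overlaps a GC box. The blocks lie on THBS1 and THBS2, with 1 block on THBS2 and 0 on FBN1.

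The deposited values were log2 levels, with array medians of 3.68 (control) and 3.73 (cMyc shRNA). A gene counted as measured when its mean over both arrays was not under 3.70, the median of the means of all probe sets. This kept 10258 of 14884 named genes and all 3 members. With 1 array per group there was no spread between replicates, no test and no p-value. The closest thing to an error was technical: probe sets of the same gene gave differences between the arrays with an SD of 0.34 per probe set on the log2 scale, from 416 genes with at least 2 of them measured. This SD comes from the same 2 arrays and holds no spread between cultures. Multiples of it below give a scale and are no test. Each member had 1 probe set, so none had such a repeat of its own. MYC, the target, read 7.09 in control cells and 6.16 in cMyc shRNA cells, a difference of -0.93, or 1.91-fold less. The difference was 2.77 times the technical SD, and MYC stood 483rd from the lowest of the 10258 measured genes. It lay inside the central 95% of differences of the genes nearest to MYC in mean level, from -1.37 to 0.95. By this measure MYC did not stand out from genes of like level. In bulk RNA of this kind, fewer cells with a transcript and less of it per cell cannot be told apart.

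Some mesenchymal markers read high and others were under the level filter. Of 19 mesenchymal and fibrosarcoma markers 9 were named and 6 measured, among them FN1 (12.4 in control cells and 12.6 in cMyc shRNA cells), SNAI2 (both 11.4) and VIM (9.94 and 9.34). The other 2 probe sets of VIM differed by -0.95 and -1.02, against -0.59 for the brightest. TWIST1 (4.31 and 4.28) and THY1 (4.50 and 4.86) were not far above the filter. S100A4 (3.06 and 3.39) and the proteoglycans of fibroblasts LUM (2.28 and 2.54) and DCN (2.30 and 2.15) were under it on both arrays, and the fibrillar collagens were not analysed here. Markers of other cell types were mixed as well. Of the epithelial list, the keratins KRT18 (9.09 and 8.41) and KRT8 (5.30 and 4.62) and the claudin CLDN3 (6.09 and 5.92) were measured, while the adhesion molecule EPCAM (2.73 and 3.07) was under the filter. Of the endothelial and platelet list, TIE1 (6.21 and 5.79), PF4 (5.86 and 6.04) and ESAM (5.18 and 5.69) were measured, while PECAM1 (2.82 and 2.99) and VWF (2.89 and 3.01) were under it. The epithelial list had a median difference of -0.32 over 6 measured genes, 4 below 0 and 2 above. KRT18 was lowest (-0.69, with its dimmer probe set at 0.12) and the claudin CLDN7 highest (0.53, from 4.62 to 5.15). The endothelial and platelet list had a median of 0.18 over 5 measured genes, 2 below 0 and 3 above. The smooth and skeletal muscle list had a median of 0.43 over 4 measured genes, 2 below 0 and 2 above. DES was 1.23 higher on its brighter probe set and 0.38 lower on the other. TTN was at 0.91, with its dimmer probe set, under the level filter, at 0.02, and TAGLN was lowest at -0.72. The haematopoietic list had 1 measured gene, CD68, at 0.91. The part of these markers in the results was not tested.

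THBS2 was the member with the largest difference. Its probe set (17025844) read 7.11 in control cells and 5.23 in cMyc shRNA cells. The cMyc shRNA array was thus the lower one by 1.88 on the log2 scale, which leaves 27.1% of the control level, or 3.69-fold less. Both values were above their array's median, by 3.43 and by 1.5. The difference was 5.60 times the technical SD. In the order of the 10258 measured genes THBS2 stood 67th from the lowest. Among the 500 genes nearest to it in mean level, whose central 95% of differences ran from -1.52 to 0.91, 9 were lower.

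THBS1 was lower by a smaller step. Its probe set (16799315) read 12.46 in control cells and 11.39 in cMyc shRNA cells. The difference was -1.06, which leaves 47.9% of the control level, or 2.09-fold less, and it was 3.16 times the technical SD. MYC and THBS1 were thus both lower in the cMyc shRNA cells. The control value of THBS1 lay 1.40 below the highest value of that array, near the upper end of the scale. THBS1 stood 342nd from the lowest of all measured genes. Among the 500 genes nearest in mean level, whose central 95% ran from -0.92 to 0.87, 6 were lower. These genes spanned mean levels from 9.17 to 12.9, a wider stretch than for the other members, since few genes read so high. Its place past 2-fold was narrow: after loess of the differences on the level it was -0.999, just short of 2-fold, and 1 of the 3 members was then past 2-fold lower.

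FBN1 differed the other way and by less. Its probe set (16808793) read 8.78 in control cells and 9.23 in cMyc shRNA cells. The difference was 0.44, or 1.36-fold higher, 1.32 times the technical SD and within 2-fold. Of the 500 genes nearest in mean level, 66 were higher and 434 lower. FBN1 stood 1454th from the highest of the measured genes, so many genes differed as much in that direction.

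Past 2-fold lower were 2 of the 3 members, where 4.0% of all measured genes were (410 of 10258), and 0 members were past 2-fold higher, where 2.01% were (206 genes). In either direction it was 6.01% of the measured genes. The choice of the members used this same contrast, so nothing is read from these shares. Set against each other, the differences of THBS2 and THBS1 lay 0.82 apart, 1.73 times the technical SD of 0.48 for a gap between probe sets. FBN1 lay 1.51 from THBS1 and 2.33 from THBS2, which is 3.17 and 4.89 times that SD. That SD is no replicate error and the members were chosen on these values, so nothing is read from the gaps either.

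**Figure D2:**
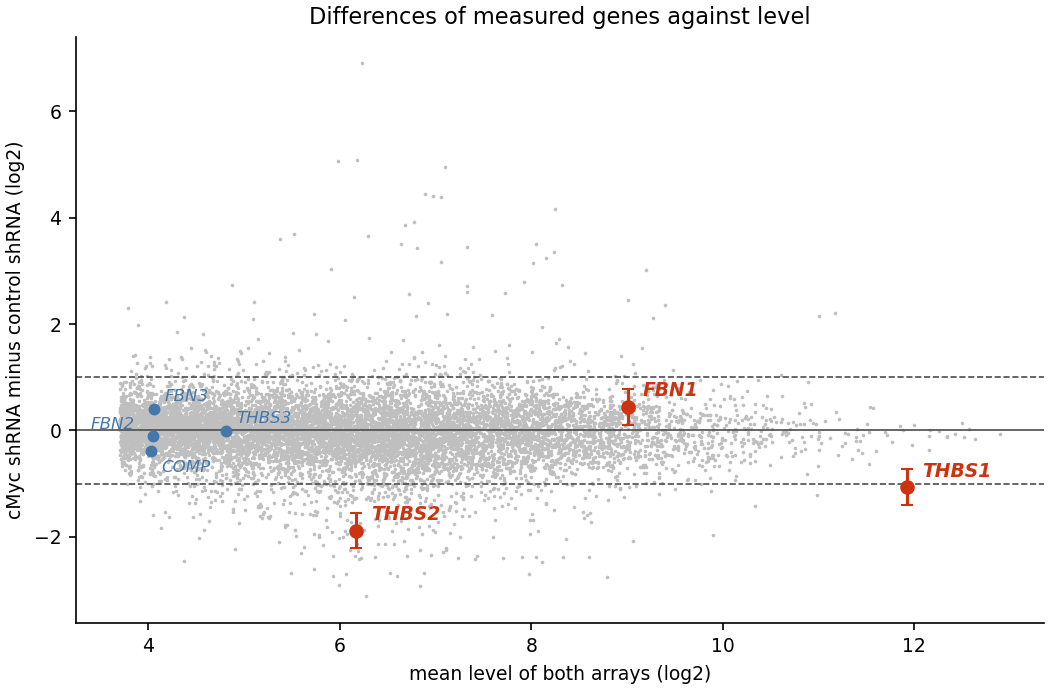
Log2 difference of the cMyc shRNA array minus the control shRNA array (vertical) against the mean log2 level of both arrays (horizontal) for 10258 measured named genes in grey, with dashed lines at 2-fold. THBS1, THBS2 and FBN1 are red with bars of 1 technical SD between probe sets (0.34), which is no replicate error, and their measured paralogs are blue; THBS1 and THBS2 lie below the lower dashed line and FBN1 between the lines.

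The paralogs of the thrombospondins did not share the size of these differences. THBS3 read 4.82 in control cells and 4.81 in cMyc shRNA cells. COMP, the pentameric thrombospondin of cartilage, read 4.22 and 3.83, a difference of -0.39. THBS4 read 2.85 and 3.21, under the level filter on both arrays. THBS3 lay 1.04 from THBS1 and 1.86 from THBS2 in log2 difference, 2.20 and 3.92 times the technical SD of a gap. COMP and THBS3 read closer to the array median than the members, at 0.54 and 1.14 above it on the control array. How far signal so near the background can show a difference was not tested.

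The other fibrillins read near the level filter. FBN2, a fibrillin of development, read 4.10 in control cells and 4.0 in cMyc shRNA cells, a difference of -0.10. FBN3 read 3.86 and 4.26, a difference of 0.40. The difference of FBN1 lay 0.54 from that of FBN2 and 0.05 from that of FBN3, so neither gap was much beyond the technical SD of 0.48. The signs of all 8 genes of both families were the same under the 3 other scalings.

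**Figure D3:**
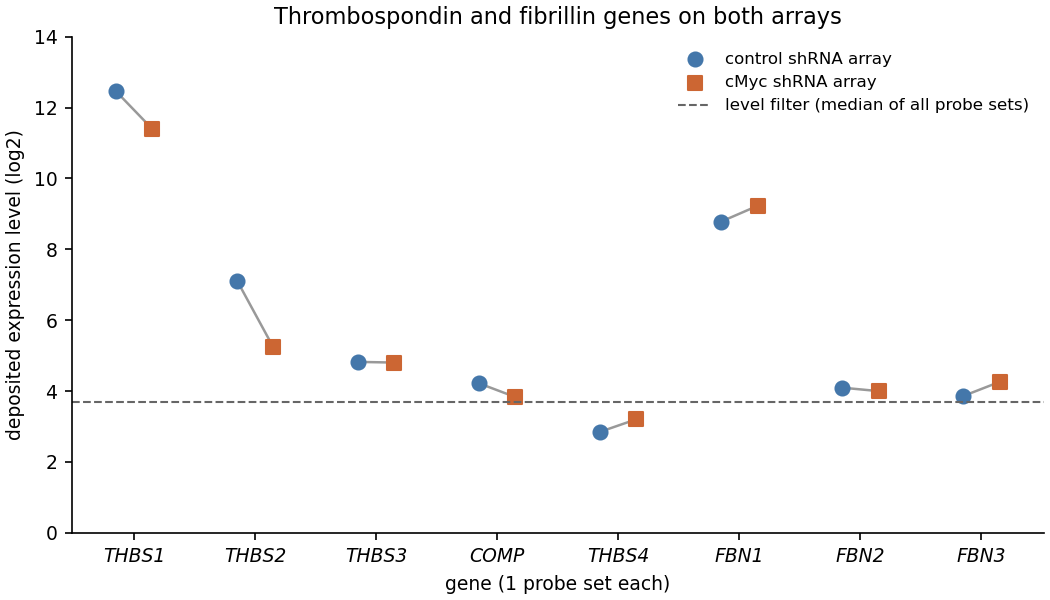
Deposited log2 levels of the 5 thrombospondin and 3 fibrillin genes, 1 probe set each, on the control array (blue circles) and the cMyc shRNA array (orange squares), with the level filter of 3.70 dashed. Levels are to be compared within a gene only: the squares of THBS1 and THBS2 lie below their circles, that of FBN1 slightly above, and both points of THBS4 lie under the line.

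The receptors and partners of thrombospondins showed no common direction. Of 23 listed genes 13 were named and 11 measured. Past 2-fold, 1 of these was lower, where 4.0% of all measured genes were, and 0 were higher, where 2.01% were. Their median was 0.01, beside -0.01 over all measured genes. SIRPA, the counter-receptor of CD47 on other cells, read 6.66 and 5.61 (-1.05). Its second probe set differed by 0.06, at a mean level of 3.96, near the level filter. JAG1, a Notch ligand, was at -0.64 and SDC1, a heparan sulfate proteoglycan of the cell surface, at -0.31. At the other end were SDC4 (0.51), a syndecan of focal adhesions, VLDLR (0.42), a lipoprotein receptor, and CD47 itself (0.36), which read 7.91 and 8.27. CD36, the receptor of the type 1 repeats, read 2.27 on both arrays, under the level filter.

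Proteins with thrombospondin type 1 repeats, and the enzymes that put sugars on them, had 55 listed genes, of which 24 were named and 16 measured. At least 2-fold lower were 3: THBS2, THBS1 and UNC5B, a netrin receptor, which read 6.61 and 5.50 (-1.11). Of all measured genes 4.0% were. THBS2 and THBS1 are members chosen on this same contrast, so UNC5B alone was lower among the 14 others. None of the 16 was at least 2-fold higher, where 2.01% of all measured genes were. The median was -0.04, and 0.01 over the 14 without the members. RSPO4, a secreted enhancer of WNT signalling, was highest at 0.86, followed by HMCN1 (0.45), a hemicentin, and POFUT2 (0.34), the enzyme that adds fucose to these repeats. The control value of HMCN1 was 3.64, under the level of the filter, against 4.09 in cMyc shRNA cells.

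Among the genes of microfibrils and elastic fibres FBN1 was the third highest. Of 42 listed genes 37 were named and 31 measured, and the median was 0.03. Past 2-fold, 1 of the 31 was lower, where 4.0% of all measured genes were, and 0 were higher, where 2.01% were. LTBP1, which tethers latent TGF-beta to fibrillin, read 8.55 and 9.10, a difference of 0.55. EFEMP2, a fibulin needed for elastic fibre assembly, differed by 0.50. LTBP1 thus lay 0.11 from FBN1, while the other LTBP genes lay lower, with LTBP3 at -0.02, LTBP2 at -0.10 and LTBP4 at -0.49. VCAN, the proteoglycan versican, which binds fibrillin, was lowest at -1.20 (7.23 and 6.03), and its dimmer probe set, under the level filter, was at -0.49. LOXL3, a lysyl oxidase that cross-links matrix, was at -0.88 and ADAMTSL4, a microfibril-binding protein, at -0.67. ADAMTSL4 read 4.73 in control cells and 4.06 in cMyc shRNA cells, the latter not far above the level filter.

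Most other assembly genes of that list differed little. The cross-linking enzymes LOX (0.21), LOXL2 (0.07), LOXL4 (0.03) and LOXL1 (-0.27) were all within the technical SD. So were elastin, ELN (0.15), and the fibulins FBLN1 (0.08), FBLN2 (0.08) and FBLN7 (0.23). EFEMP1, a fibulin that read 11.0 on the control array, was at -0.35. The microfibril-associated gene MFAP4 was at -0.16, while MFAP2, MFAP5 and FBLN5 were under the level filter, with differences of 0.00, 0.44 and 0.28.

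Of 44 listed genes of the TGF-beta axis, which both protein families touch, 21 were named and 19 measured. Of these 0 were past 2-fold in either direction, where 6.01% of all measured genes were. Their median was -0.02. SMURF1, a ubiquitin ligase that removes pathway components, was highest at 0.72, then LTBP1 and SKI (0.53), a repressor of SMADs. BMP2, a ligand of the family, was lowest at -0.88, then ENG (-0.69), a co-receptor, and LTBP4. BMP2 read 5.00 in control cells and 4.12 in cMyc shRNA cells, the latter not far above the level filter. CCN2, a matrix gene that TGF-beta and YAP switch on, read 11.35 and 11.27 on its brighter probe set, a difference of -0.07, and -0.16 on the other. TGFB1 to TGFB3 and their receptors were not analysed here.

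The other lists of matrix genes had counts past 2-fold that are to be read beside the 4.0% lower and 2.01% higher over all measured genes. A list of other matrix proteins, which shares VCAN with the microfibril list, had 14 measured genes, a median of 0.03 and 0 genes past 2-fold higher. In it VCAN alone was past 2-fold lower, with TNC (-0.82), the antiadhesive tenascin, and NID2 (-0.53), a basement membrane protein, next. ECM1 (0.68), AGRN (0.55), the proteoglycan agrin, and HAS2 (0.33), a hyaluronan synthase, were highest, and FN1, fibronectin, was at 0.15. Of 26 measured genes of matrix turnover 0 were past 2-fold in either direction and 18 were above 0, with a median of 0.14, beside 4977 of all 10258 measured genes above 0. The metalloproteases MMP19 (0.93) and MMP16 (0.73) and the inhibitor RECK (0.64) were highest. MMP19 read 3.81 in control cells, near the level of the filter, and 4.74 in cMyc shRNA cells. TIMP3, a metalloprotease inhibitor, (-0.46), ADAM12 (-0.44) and BMP1, a procollagen protease, (-0.40) were lowest.

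Among 19 measured regulators of blood vessel growth, the process for which THBS1 and THBS2 are best known, 1 was past 2-fold lower and 0 past 2-fold higher, and the median was 0.05. That gene was NRP2, a neuropilin that binds VEGF and semaphorins, which read 7.25 and 5.72 (-1.54). PDGFC (-0.71) and FGF2 (-0.56), both growth factors, were next. ADM (0.84), a vasodilator peptide, EFNB2 (0.32), an ephrin, and EPAS1 (0.29), a hypoxia factor, were highest. The control value of ADM was 3.48, under the level of the filter, against 4.32 in cMyc shRNA cells. The 11 measured genes of matrix secretion and assembly stayed within 2-fold, from MCFD2 (-0.53), SEC23A (-0.27) and CRTAP (-0.25) to ERP44 (0.34), SAR1B (0.37) and SAR1A (0.42), with a median of 0.01. Over all 9 lists together, 135 distinct genes were measured, of which 6 were past 2-fold lower and 0 past 2-fold higher. Without the members there were 4 of 132 lower (3.03%): VCAN, SIRPA, UNC5B and NRP2. This is close to the 4.0% of all measured genes that were past 2-fold lower, so the lists are not a result in themselves.

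**Figure D4:**
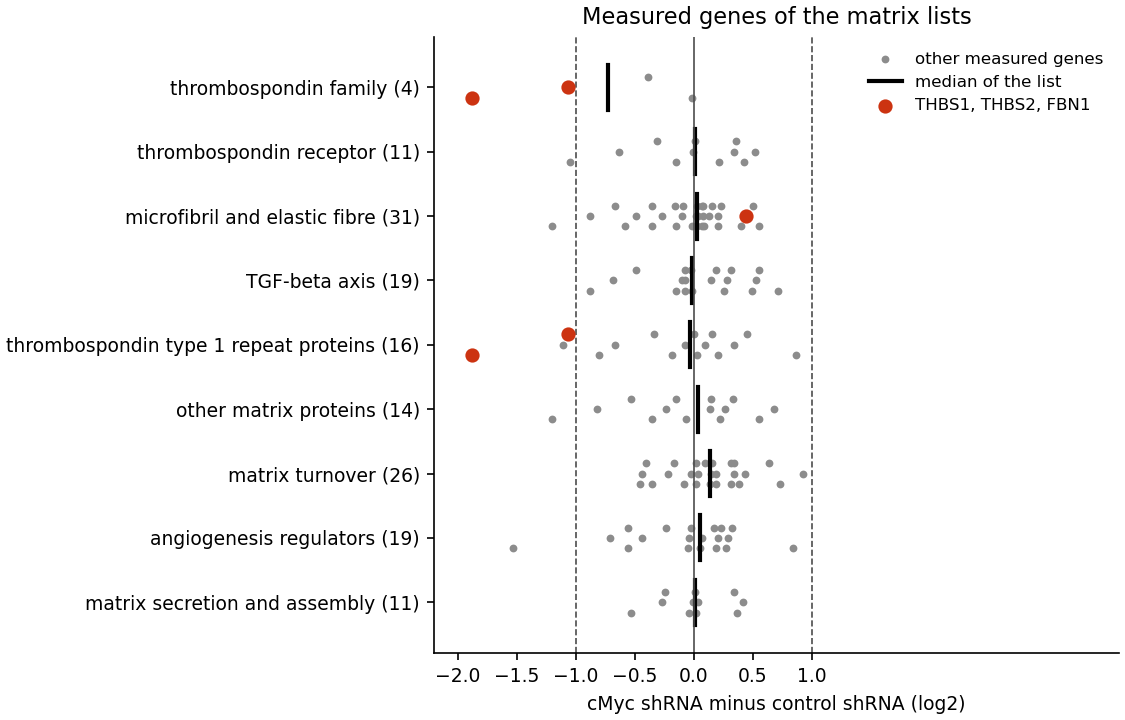
Log2 difference of the cMyc shRNA array minus the control shRNA array for each measured gene of the 9 matrix lists (points, with the number measured in brackets), the list medians (black bars) and lines at 2-fold; points are spread vertically for sight only. Red points are THBS1, THBS2 and FBN1, and THBS2 is the lowest point of every list that holds it.

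Genes nearest by distance over the 2 log2 levels were sought apart from symbols of the locus, LINC, microRNA and open reading frame types. The measured genes most like THBS2 were then AURKA (distance 0.11), MYBL2 (0.12) and GINS2 (0.14). Those nearest to FBN1 were DAZAP2 (0.03), CDC16 (0.04) and WBP1L (0.05). THBS1 had no gene so near: the closest were MSN (0.56), RPS15 (0.59) and HNRNPA1P10 (0.64), with differences of -0.28, -0.36 and -0.63. In the order of differences alone, THBS1 stood between CERK and GPN3, THBS2 between KIF23 and C18orf54, and FBN1 between MED4 and CD300A. Each of these neighbours lay within 0.01 of its member, far inside the technical SD, so the order has no weight. The likeness rests on 2 arrays and compares the values of different probe sets.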

How the data were processed

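The deposited table holds log2 values for 53617 probe sets, between 1.41 and 13.9, made by the authors with Affymetrix Expression Console, per the submitters' processing notes. Its version and its normalization were not given in the sources used here. Since no log base is stated either, it was inferred from the range, and folds assume base 2. GEO's platform annotation gave 1 symbol for 16098 probe sets (30.0%), several for 0 and none for 37519. A gene with several probe sets was represented by the brightest of them, by mean level. The members and lists were chosen with earlier results of these data known. Named genes were the members and their paralogs, MYC, up to 3 highest and 3 lowest measured genes of each list, the named microfibril families, and the nearest genes by level and by order. Differences are cMyc shRNA minus control. Scanner intensities and detection calls were not used here, and the precision of a value is limited by the 2 arrays. Alternatives covered 3 scalings, 2 level filters, the mean over probe sets, and rules of 1.5-fold and 4-fold. The loess span was 0.3. Promoters came from RefSeq, GRCh38.p14. Calculations used Python 3.11.15 with pandas 2.3.3, statsmodels 0.14.6 and numpy 2.4.6. Only the gene values and the counts past 2-fold were tested on simulated data.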

Additional observations from a re-analysis of the deposited data

How the results depend on the processing

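Under the 3 other scalings, THBS2 stayed between -1.93 and -1.84, THBS1 between -1.11 and -0.999 and FBN1 between 0.40 and 0.50. The other level filters and the mean over probe sets could not change these values. Each member has 1 probe set and passed every filter. After loess THBS1 no longer reached 2-fold (-0.999). Under 6 alternatives of scaling, level filter and probe set rule, the list medians crossed 0 and moved by less than 0.34. They ran from -0.02 to 0.03 (microfibril), -0.03 to 0.08 (receptor) and -0.06 to 0.05 (TGF-beta). The background counts moved by construction: 1224 lower and 900 higher at 1.5-fold, 49 and 47 at 4-fold, and 126 higher when the filter was the 75th percentile, where fewer genes are measured. No paired analysis was possible because each group has 1 array.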

Other observations

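These genes were chosen after their values were seen. The protein-coding genes with a named probe set that stand next to the members on their chromosomes differed less than THBS1 and THBS2 did. After THBS1 on chromosome 15 came FSIP1 (0.48) and GPR176 (-0.07). FSIP1 read 3.54 in control cells, under the level of the filter, and 4.02 in cMyc shRNA cells. Before THBS1 came RASGRP1 (2.77 in control cells and 2.87 in cMyc shRNA cells) and TMCO5A (2.51 and 2.64), both under the level filter. After THBS2 on chromosome 6 came WDR27 (-0.37) and PHF10 (-0.32), and before it SMOC2 (2.92 and 3.01) and FRMD1 (3.11 and 3.56), both under the filter. Before FBN1 on chromosome 15 came DUT (-0.08), an enzyme of nucleotide metabolism, and CTXN2, under the filter (2.29 and 2.77). After it came CEP152 (-0.87), a centriole gene, and EID1 (0.19), so the measured neighbours of FBN1 lay on both sides of 0.

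MIR17HG, the host transcript of a microRNA cluster that MYC switches on and that has been described to act on THBS1, read 3.41 in control cells and 2.84 in cMyc shRNA cells. Both values were below their array's median, so nothing about THBS1 is read from them.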
